A study of Mus musculus with 6 samples.

Results

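The genes described here are 10 factors that set how the cells of the intestinal lining choose between an absorptive and a secretory fate: the Notch receptors Notch1 and Notch2, the ligands Dll1, Dll4 and Jag1, the Notch target Hes1, and the secretory factors Atoh1, Spdef, Gfi1 and Neurog3. They were chosen by symbol, all 10 are among the 33017 genes of the deposited count table, and 9 of them are among the 15904 genes with enough reads to be tested. The mRNA of snap-frozen small intestine of mice was sequenced in 3 libraries labelled model and 3 labelled control, after capture on poly-T beads. The series title names simulated microgravity, radiation and a protective compound, and the design text speaks of the joint effect of both factors, so the comparison asks what the model treatment did to the tissue. The labels give no strain, age, sex, dose, duration or intestinal segment for either group, and name no library as given the compound. Nothing in them tells whether each library is 1 animal, so the p-values rest on library-to-library spread that may not be spread between animals.

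In Notch signalling, a ligand on one cell binds a receptor on its neighbour, the receptor is cut, and its inner part enters the nucleus to switch on repressors such as Hes1. In intestinal crypts, the Hes1 protein holds down Atoh1, and a progenitor that escapes this repression makes Atoh1, becomes secretory and itself displays Delta-like ligands to its neighbours. Downstream of Atoh1, Spdef matures goblet and Paneth cells, Gfi1 keeps these cells from the hormone-producing path, and Neurog3 starts that path.

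Library totals lay between 35007515 and 45285564 counts. Levels are given as CPM, read counts scaled to a common library total with TMM factors, and the epithelial marker Vil1 (villin) lay between 1810 and 2389 CPM in the 6 libraries. Control 3 had the gene pattern of ileum and the other 5 libraries that of more proximal intestine: the bile acid binding protein gene Fabp6 measured 1166 CPM in control 3 and at most 0.285 CPM elsewhere, and the proximal factor Gata4 measured 1.90 CPM in control 3 and 214 to 255 CPM elsewhere. Over the lists, 7 ileum markers summed to 256 to 403 CPM in model libraries, against 223, 305 and 2696 CPM in controls 1, 2 and 3, and 7 proximal markers to 2220 to 3399.7 CPM in model libraries, against 3112, 3071 and 302 CPM. Model 1 was poor in long transcripts: the 1079 tested genes with over 8 kb of exon had a median deviation of -0.56 (log2 CPM minus the mean of the 6 libraries) in model 1, against -0.01 to 0.35 in the others. Model 3 held pancreatic RNA, with 9 acinar markers at a sum of 5140 CPM, against at most 10.7 CPM elsewhere and with Cela2a listed at 0 throughout. Values below are therefore also given without control 3 or model 1 where that matters.

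None of the 9 tested genes passed the test for a difference between model and control tissue. The quasi-likelihood test of edgeR called 0 of 9 at an adjusted p under 0.05, where it called 0% of all tested genes, and its smallest adjusted p over all genes was 0.851. At an unadjusted p under 0.05 it gave 0 of 9, against 4.81% of all genes (1.82% higher and 2.99% lower in model tissue). The groups overlapped for all 9, where they were apart for 11.1% of all genes (4.73% with model above and 6.33% with model below). DESeq2's test called 0 of 9 and 25 genes in all (0.157%). Hes1 and Dll1 had higher means in model tissue and the other 7 lower ones, with a median log2 fold change of -0.23, against -0.02 over all tested genes, of which 51.8% were lower. Without control 3 the split turned to 6 higher and 3 lower, with a median of 0.10.

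**Figure D1:**
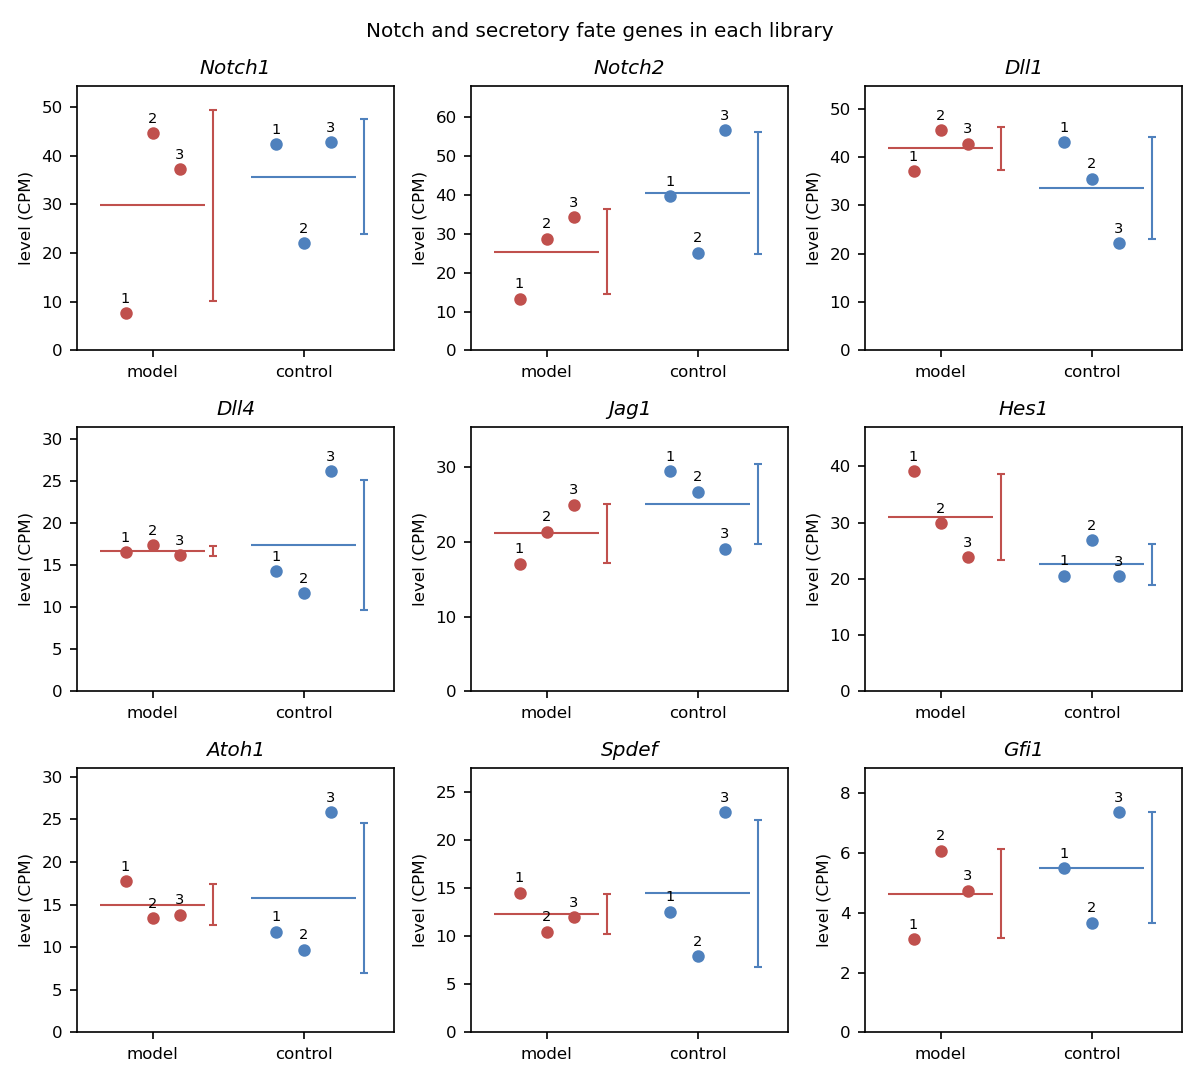
Level of each of the 9 tested genes (CPM, linear axis from 0) in the 3 model libraries (red) and the 3 control libraries (blue), with replicate numbers, the group mean as a line and 1 SD as a bar. Control 3 is the highest library for Notch2, Dll4, Atoh1, Spdef and Gfi1 and the lowest for Dll1 and, by a small margin, Hes1, and model 1 is the lowest for Notch1, Notch2, Jag1 and Gfi1.

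Hes1, the repressor through which Notch blocks the secretory fate, was the most abundant of the genes per length and came nearest to a difference. It measured 39.2, 29.9 and 23.9 CPM in model 1, 2 and 3, against 20.55, 26.8 and 20.5 CPM in control 1, 2 and 3. Only model 3 and control 2 kept the groups from standing apart. The means were 31.0 ± 7.69 CPM in model and 22.6 ± 3.65 CPM in control tissue (SD, n = 3 each), a log2 fold change of 0.45 (SE 0.24, 95% interval -0.12 to 1.02, edgeR adjusted p = 0.851). The log2 fold change was 0.25 without model 1, 0.61 without model 3 and 0.40 without control 3. It was 0.33 with each library's trend with gene length removed. Hes1 is a short gene (1.47 kb of exon), and genes of 1 to 2 kb had a median deviation of 0.38 in model 1, where Hes1 was highest. Beyond that removal, the part of length in the Hes1 value was not tested.

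Atoh1, the factor that commits a progenitor to the secretory fate, differed more within the control group than between groups. It measured 17.7, 13.4 and 13.8 CPM in model libraries, against 11.8, 9.70 and 25.8 CPM in controls 1, 2 and 3. The 3 model libraries lay between the lower control libraries and control 3. The means were 15.0 ± 2.40 CPM in model and 15.8 ± 8.77 CPM in control tissue (SD, n = 3 each), with a log2 fold change of -0.08 (SE 0.39, 95% interval -0.98 to 0.82). Without control 3, the log2 fold change was 0.49 with an unadjusted p = 0.106 in edgeR.

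Spdef, an ETS factor that drives goblet and Paneth cell maturation, measured 14.6, 10.5 and 12.0 CPM in model libraries, against 12.6, 7.96 and 23.0 CPM in control libraries. The order of the libraries resembled that of Atoh1, with control 3 highest and control 2 lowest. Its log2 fold change was -0.23 (SE 0.39, 95% interval -1.14 to 0.68), and 0.28 without control 3. Gfi1, a zinc finger repressor downstream of Atoh1, was the least abundant of the genes per length. It measured 3.12, 6.08 and 4.73 CPM in model libraries, against 5.49, 3.66 and 7.36 CPM in control libraries. Control 3 was again highest, but model 1 was lowest, where Atoh1 and Spdef were second highest. The log2 fold change of Gfi1 was -0.24 (SE 0.38, 95% interval -1.13 to 0.65), and 0.04 without control 3.

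Neurog3, which starts the enteroendocrine lineage, is listed at 0 in all 6 libraries and could not be tested. A count of 0 allows up to 0.104, 0.0680 and 0.0855 CPM in model 1, 2 and 3 and up to 0.0626, 0.0802 and 0.0712 CPM in control 1, 2 and 3, for counting error only. The 0 was not read as absence of the transcript. Genes that nearly every cell uses, such as B2m and Rpl35, are also listed at 0 in all 6 libraries, and so is Neurod1, which acts next after Neurog3. In the GRCm38 annotation, 273 of the 1540 exon bases of Neurog3 lie over an exon of Fam241b on the other strand, and whether that bears on the count was not tested. Other factors of the lineage were counted in every library, with Insm1, a zinc finger factor of endocrine progenitors, at 2.01, 2.84 and 2.17 CPM in model libraries and 3.17, 2.51 and 1.90 CPM in control libraries.

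The pattern over libraries of Atoh1, Spdef and the ligand Dll4 was alike. Likeness was measured as the root mean square difference of log2 CPM, centred on the gene mean, over the 6 libraries. The 5 tested genes nearest to Atoh1 were Gm11747 (0.0902), Hhex (0.102), Zfp37 (0.116), Anxa5 (0.128) and Atp2c2 (0.139). Spdef stood at rank 6 from Atoh1 (0.141) and Dll4 at rank 13 (0.164) among all other tested genes, while Gfi1 stood at rank 3208 and Hes1 at rank 7048. Much of this order comes from control 3: over the other 5 libraries Spdef stood at rank 245 and Dll4 at rank 300, with 1.53% and 1.88% of genes nearer to Atoh1. Over the same 5 libraries Hes1 stood at rank 1959 and Gfi1 at rank 9631, so that Hes1 was then nearer to Atoh1 than Gfi1 was. The 5 genes nearest to Hes1 were Fuca1 (0.0535), Ogfr (0.0766), Spag6 (0.0798), Spcs2 (0.0840) and Slc35f5 (0.0845). These distances describe 6 libraries and carry no test.

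The promoter windows of these like-patterned genes are shown because Notch output is read by RBPJ at TGGGAA and Hes1 acts at N boxes, CACNAG. RefSeq windows of 300 bases (250 before to 50 after the start, build GRCm38.p6, in the direction of the gene) were found for 9 of the 10 genes, with 2 windows each for Gfi1 and Dll1 and none for Hes1. Capitals mark RBPJ cores and N boxes on either strand. The Atoh1 window is chr6:64728875-64729174 (plus strand), that of Spdef chr17:27728902-27729201 (minus strand) and that of Dll4 chr2:119325534-119325833 (plus strand).
Atoh1: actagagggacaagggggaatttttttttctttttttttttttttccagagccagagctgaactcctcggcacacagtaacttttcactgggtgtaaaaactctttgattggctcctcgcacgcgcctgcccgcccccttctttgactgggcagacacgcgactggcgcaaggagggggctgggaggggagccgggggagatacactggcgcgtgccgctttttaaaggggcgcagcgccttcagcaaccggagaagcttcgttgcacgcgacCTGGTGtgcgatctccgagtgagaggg
Spdef: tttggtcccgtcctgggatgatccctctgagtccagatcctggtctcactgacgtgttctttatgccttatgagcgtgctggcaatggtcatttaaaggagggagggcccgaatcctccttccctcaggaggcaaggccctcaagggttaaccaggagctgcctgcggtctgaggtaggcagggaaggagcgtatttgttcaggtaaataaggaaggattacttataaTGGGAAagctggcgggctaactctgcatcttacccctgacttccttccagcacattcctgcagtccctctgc
Dll4: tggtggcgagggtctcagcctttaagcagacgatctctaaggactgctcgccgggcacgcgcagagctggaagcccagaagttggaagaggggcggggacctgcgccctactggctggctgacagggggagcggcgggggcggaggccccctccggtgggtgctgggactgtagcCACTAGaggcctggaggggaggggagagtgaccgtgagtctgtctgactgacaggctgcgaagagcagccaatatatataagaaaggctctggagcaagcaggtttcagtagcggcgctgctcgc
Atoh1 and Dll4 have 1 N box each and no RBPJ core, and Spdef has 1 RBPJ core and no N box. Over the 11 windows of these genes, 5 hold an N box and 1 an RBPJ core, against 42.5% and 25.6% of all 32851 windows in the table. E boxes, CANNTG, which Atoh1 and Neurog3 bind and which can overlap the other motifs, are in 6 of the 11 windows, against 72.3% of all, and in none of the 3 printed. A match describes letters in this window and is no measured binding.

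The ligands differed in which libraries were high. Dll1, carried by secretory progenitors and later secretory cells, measured 37.0, 45.6 and 42.7 CPM in model libraries, against 43.1, 35.5 and 22.2 CPM in control libraries. Control 3 was the lowest library, and the other 5 lay within 35.5 and 45.6 CPM. Its log2 fold change was 0.31 (SE 0.27, 95% interval -0.31 to 0.94), and 0.10 without control 3. Dll4, the second crypt ligand and also a ligand of endothelial cells, measured 16.6, 17.4 and 16.2 CPM in model libraries, against 14.3, 11.7 and 26.2 CPM in control libraries. Here control 3 was the highest. The log2 fold change of Dll4 was -0.06 (SE 0.32, 95% interval -0.80 to 0.69), and 0.38 without control 3 (unadjusted p = 0.146 in edgeR). Jag1, a ligand found in epithelium and in vessel walls, measured 17.1, 21.4 and 24.9 CPM in model libraries, against 29.5, 26.7 and 19.1 CPM in control libraries. Its log2 fold change was -0.25 (SE 0.24, 95% interval -0.82 to 0.32). Leaving out control 3 gave -0.40, leaving out model 1 gave -0.12 and leaving out control 1 gave -0.11.

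The receptors had the widest spread, and model 1 set much of it. Notch1, which acts in crypt stem cells as well as in T cells and endothelium, measured 7.62, 44.6 and 37.2 CPM in model libraries, against 42.4, 22.0 and 42.8 CPM in control libraries. Model 1 was at 0.180 of the median of the other 5 libraries, and its own deviation was -1.89 on the log2 scale. The log2 fold change was -0.26 (SE 0.59, 95% interval -1.64 to 1.12), and 0.20 without model 1. Notch2, which works beside Notch1 in crypts, measured 13.3, 28.7 and 34.3 CPM in model libraries, against 39.7, 25.2 and 56.7 CPM in control libraries. Model 1 was the lowest and control 3 the highest, and the log2 fold change of -0.67 (SE 0.41, 95% interval -1.64 to 0.30) was the largest of the 9 in size. It was -0.36 without model 1, -0.34 without control 3, -0.04 without both and -0.42 with the trend with length removed.

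**Figure D2:**
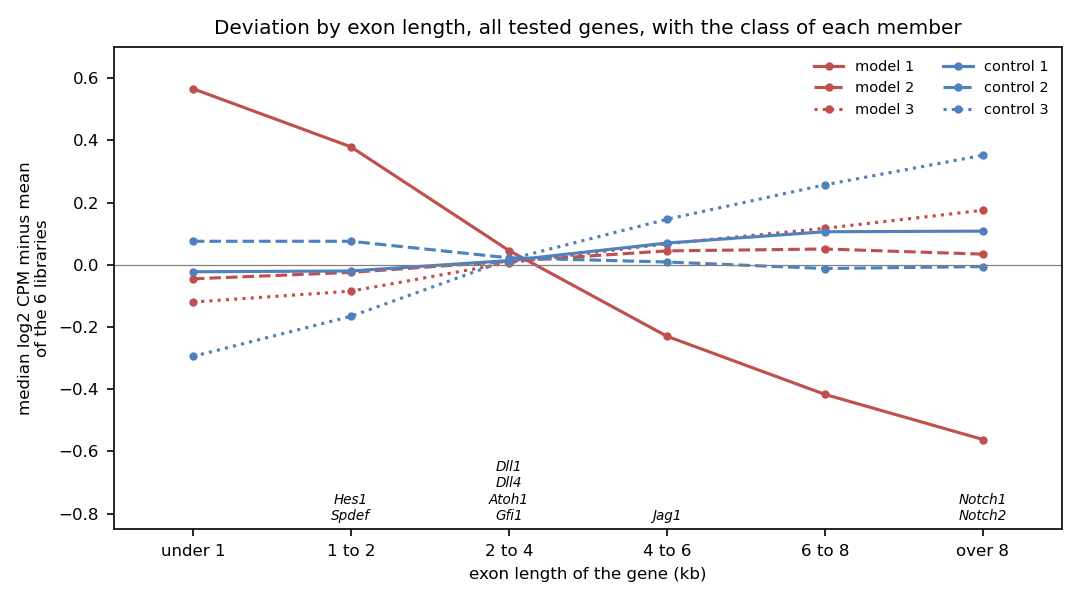
Median deviation (log2 CPM minus the mean of the 6 libraries) of all tested genes by exon length class in each library, with the length class of the 9 genes written at the foot. Model 1 runs from 0.57 under 1 kb to -0.56 over 8 kb, where Notch1 and Notch2 lie, and control 3 runs the other way, to 0.35.

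Notch1 has 9.49 kb and Notch2 10.5 kb of exon, and the class over 8 kb had a median deviation of -0.56 in model 1. Notch1 in model 1 lay well below that class median, and Notch2 at -1.18 as well. The 12 endothelial markers, from cells that also make Notch1, Notch4, Dll4 and Jag1, summed to 142, 227 and 221 CPM in model libraries, against 248, 103 and 233 CPM in control libraries. Control 2, lowest in the sum of these markers, and model 1, next above it, were also the 2 lowest libraries for Notch1 and Notch2. This was not particular to endothelial markers: the same 2 libraries were lowest in the sums of fibroblast, macrophage, B cell and Paneth markers. Jag1 was lowest in model 1 (17.06 CPM) but at 26.7 CPM in control 2, and Dll4 was lowest in control 2 (11.68 CPM) but at 16.55 CPM in model 1. Not every endothelial marker followed the endothelial sum in model 1. Esam and Emcn were highest there, at 17.5 and 11.6 CPM, and Kdr and Tek were lowest there, at 22.0 and 6.78 CPM. Whether exon length bears on the endothelial sum in model 1 was not tested. In control 2 the class over 8 kb had a median deviation of -0.01. In the GRCm38 annotation, 964 and 414 exon bases of Notch1 lie opposite those of 0610009E02Rik and Gm13568, and Notch2 shares 541 with Gm42820, so part of their reads could be split or left uncounted. In bulk RNA, fewer cells of a type and less RNA per cell cannot be told apart. Beyond removal of the trend with length, the parts of exon length and endothelial content in the receptor values were not tested.

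**Figure D3:**
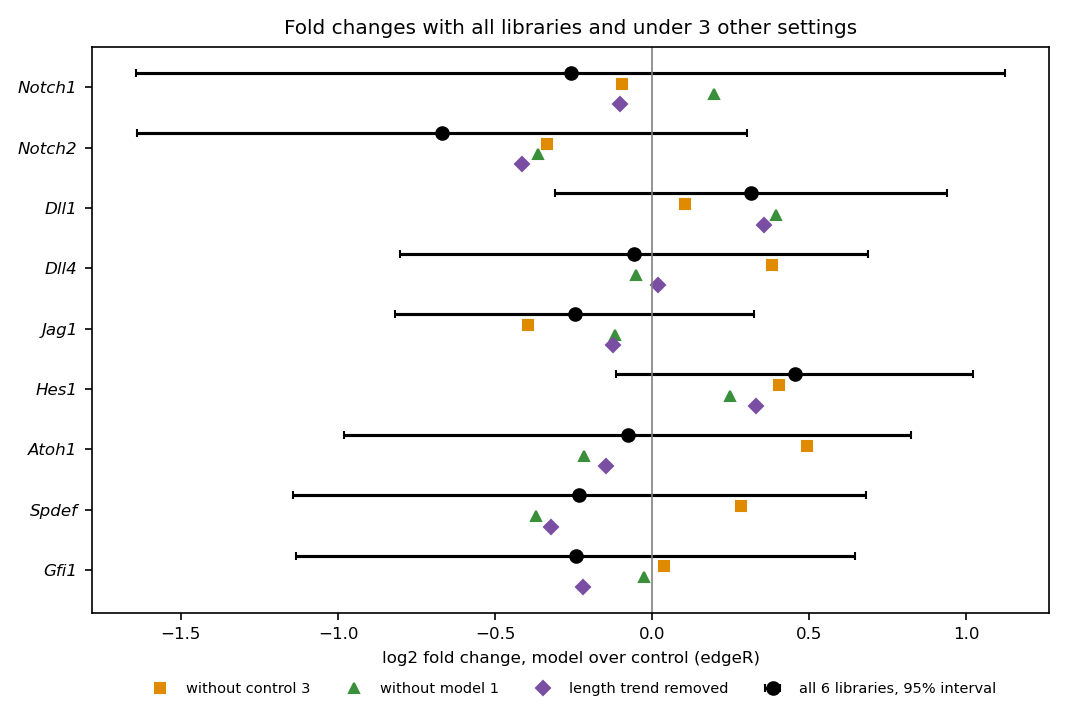
Log2 fold change (model over control, edgeR) of each tested gene with all 6 libraries and its 95% interval (black), without control 3 (orange), without model 1 (green) and with each library's trend with exon length removed (purple). All 9 intervals include 0. Dll4, Atoh1, Spdef and Gfi1 change side without control 3, Notch1 without model 1, and Dll4 also with the trend with length removed.

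Levels are set side by side between genes per length of exon, which does not remove every effect of length. The class over 8 kb had a median deviation of -0.56 in model 1 and 0.35 in control 3. The part of length in the order below was not tested. Over the 6 libraries, Hes1 averaged 18.2 ± 4.81 CPM per kb of exon (SD, n = 6), followed by Dll1 (10.5 ± 2.38 CPM per kb), Atoh1 (7.25 ± 2.72), Spdef (6.98 ± 2.69), Dll4 (4.55 ± 1.32), Jag1 (4.12 ± 0.845), Notch1 (3.46 ± 1.57), Notch2 (3.14 ± 1.40) and Gfi1 (1.63 ± 0.506). Hes1 was above Dll1 in 6 of 6 libraries without overlap of their ranges, and was first in each library. The ranges of every other neighbouring pair in this order overlapped. Dll1 was above Atoh1 in 5 of 6 libraries, Atoh1 above Spdef in 5, Spdef above Dll4 in 6 and Notch2 above Gfi1 in 6, while Dll4 was above Jag1, and Notch1 above Notch2, in 3 of 6. In control 3 Dll1 stood behind Hes1, Atoh1, Spdef and Dll4, and in the other 5 libraries behind Hes1 alone.

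Ratios within a library do not depend on scaling. For each read of Hes1 there were 0.453, 0.448 and 0.578 reads of Atoh1 in model libraries, against 0.576, 0.362 and 1.26 in control libraries. Control 3 was the only library with more reads of Atoh1 than of Hes1. The log2 ratio averaged -1.03 ± 0.21 in model and -0.64 ± 0.91 in control tissue (SD, n = 3 each), a difference of -0.39 (two-sided exact permutation p = 0.7, where 3 against 3 libraries cannot go below 0.1). Without control 3 the difference was 0.10. The ratio of Spdef to Atoh1 was the steadiest of those examined, at 0.822, 0.783 and 0.870 in model libraries, against 1.06, 0.821 and 0.889 in control libraries. The ratio of Dll1 to Dll4 was 2.24, 2.62 and 2.64 in model libraries, against 3.02, 3.04 and 0.846 in control libraries, with control 3 again apart.

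**Figure D4:**
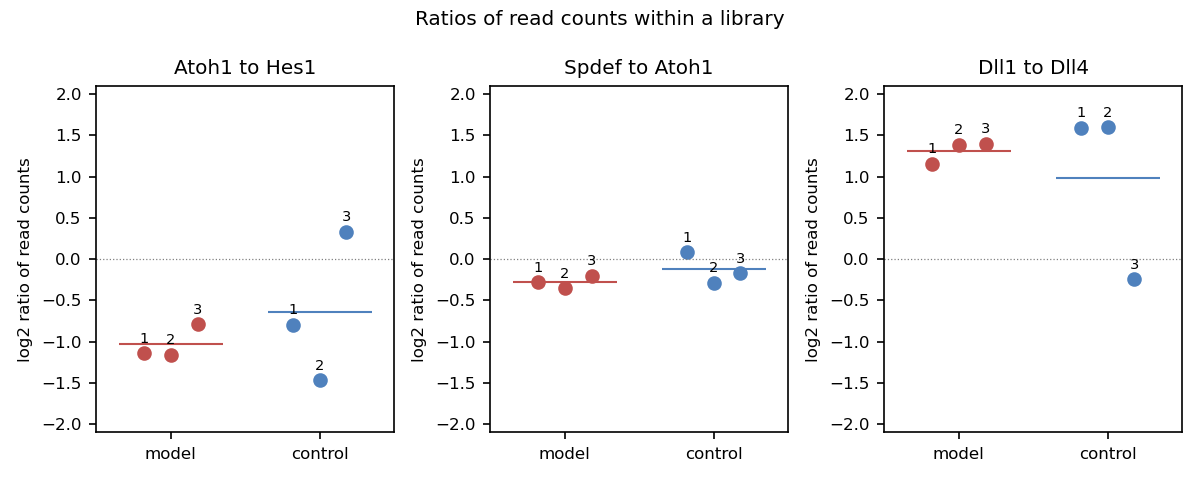
Log2 ratio of read counts within each library for Atoh1 to Hes1, Spdef to Atoh1 and Dll1 to Dll4, in model (red) and control (blue) libraries with replicate numbers and the group mean as a line. Control 3 is highest for Atoh1 to Hes1 (0.34) and lowest for Dll1 to Dll4 (-0.24), while Spdef to Atoh1 spans 0.44 over the 6 libraries.

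Among other Notch genes, no list had a called gene. Of 6 other receptors and ligands, 3 could be tested, 2 higher and 1 lower, with a median of 0.10 that ran from 0.03 without model 3 to 0.43 without control 1. Notch4, the endothelial receptor, measured 10.3 ± 2.80 CPM in model and 9.56 ± 3.61 CPM in control tissue (SD, n = 3 each), Notch3, the receptor of mural cells, 6.49 ± 4.30 and 7.84 ± 4.95 CPM, and the ligand gene Jag2 had a log2 fold change of 0.23 (SE 0.30). Dll3 and the ligand relatives Dlk1 and Dlk2 were at most at 0.376, 0.969 and 0.342 CPM in any library and too low to be tested. All 15 genes of receptor cutting and glycosylation were tested, 10 higher and 5 lower, with a median of 0.05 that was -0.06 without control 2 and 0.13 without control 3. Among them, the receptor-cutting protease gene Adam10 measured 153 ± 30.4 CPM in model and 193 ± 35.2 CPM in control tissue (SD, n = 3 each). Of 14 genes of endocytosis and turnover, 6 were higher and 7 lower, with Fbxw7, whose product degrades the active receptor, listed at 0 in all libraries. Neurl3 of the neuralized family was at 0.47 (SE 0.29) and Dtx3l of the deltex family at -0.21 (SE 0.39), as log2 fold changes. Of 9 genes of the nuclear complex, 8 were lower, with a median of -0.09 that was 0.04 without model 1 and -0.27 without model 2. The corepressor gene Spen, with the highest mean CPM of these, stood at a log2 fold change of -0.07 with an SE of 0.40.

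Of 9 other genes listed as Notch targets, 6 could be tested, 5 higher and 1 lower, with a median of 0.28, and 0 were called. In 2 of these, Hes2 and Hes6, each model library was above each control library, where 4.73% of all tested genes had that order. Hes2, a HES family repressor, measured 20.1, 14.3 and 18.9 CPM in model libraries, against 13.6, 9.57 and 12.0 CPM in control libraries, with a log2 fold change of 0.60 (SE 0.24, unadjusted p = 0.0406, adjusted p = 0.851 in edgeR). Hes6 measured 66.7, 38.7 and 39.0 CPM in model libraries, against 33.7, 37.4 and 22.0 CPM in control libraries, a log2 fold change of 0.63 (SE 0.30). In developing mouse neurons, Hes6 restrains Hes1 and is not itself switched on by Notch, but it is kept in the counts and median of this list. Hes6 has 1.335 kb of exon, and genes of 1 to 2 kb had a median deviation of 0.38 in model 1, where Hes6 was highest. The part of length in the Hes6 value was not tested. Myc had a log2 fold change of 0.33 (SE 0.21), Hey1 one of 0.11 (SE 0.30), Hey2 0.24 (SE 0.49) and Heyl, of mural cells, -0.18 (SE 0.35). Hes5 and Hes7 were at most at 0.208 and 0.623 CPM, and Nrarp, a feedback inhibitor of Notch, is listed at 0 in all libraries. The list's median was 0.25 without model 1, 0.48 without control 3, 0.20 without control 1 and 0.26 with the trend with length removed. It was 0.06 with scaling by library size alone, which moved the median of all genes to -0.21, and 0.19 with upper quartile scaling. Other filters gave 0.46 with none on low counts and 0.57 with at least 5 CPM in 3 libraries.

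Other secretory transcription factors gave 3 of 11 higher and 8 lower, with a median of -0.18 that was -0.01 without control 3 and -0.41 without model 3. The most abundant were Xbp1, a factor of the unfolded protein response that secretory cells need, at 346 ± 91.0 CPM in model and 275 ± 35.6 CPM in control tissue, and Klf4, a factor of goblet cells and of cells leaving the cycle, at 336 ± 84.0 and 247 ± 25.8 CPM (SD, n = 3 each). Enteroendocrine factors gave 5 of 11 higher and 6 lower. The leading genes by level were Mlxipl, a sugar-sensing factor also made by enterocytes, with a log2 fold change of 0.22 (SE 0.45), and Rfx3 with one of -0.23 (SE 0.33).

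**Figure D5:**
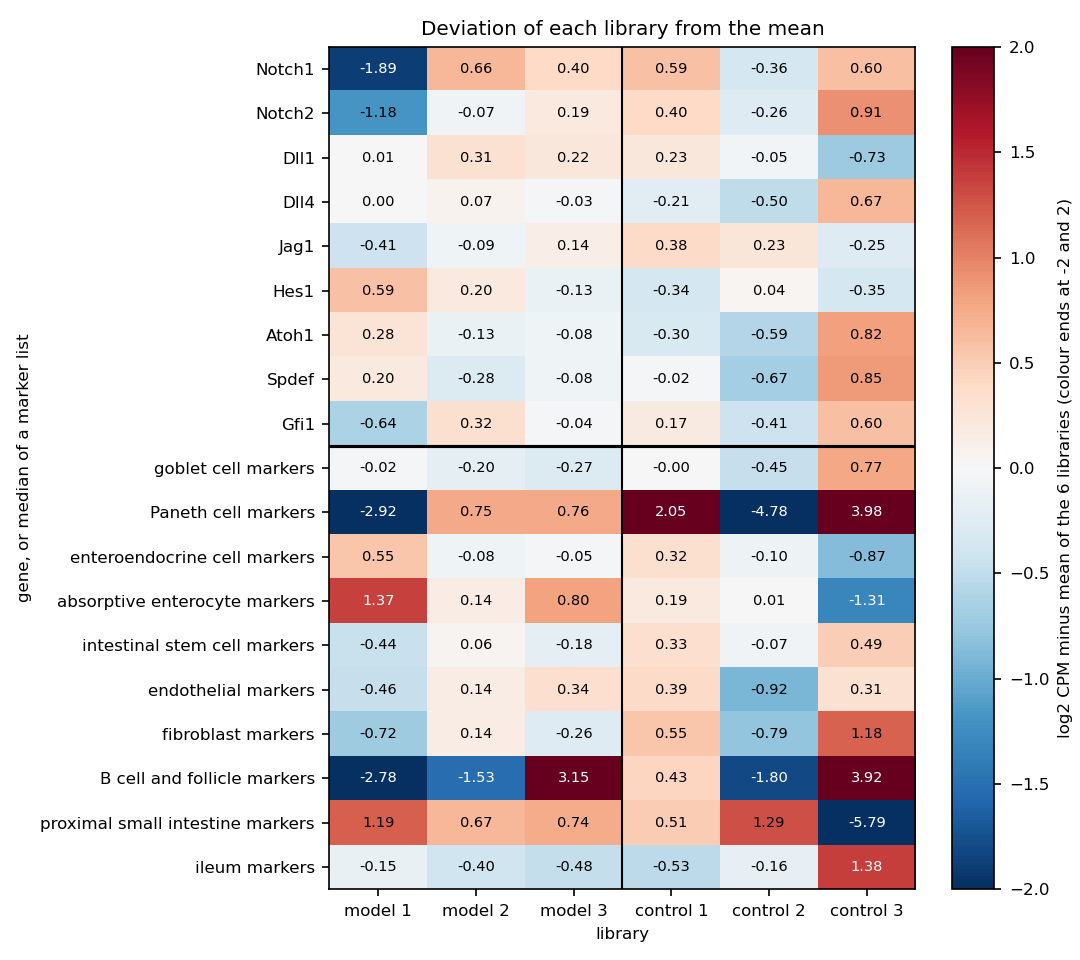
Deviation of each library (log2 CPM minus the mean of the 6 libraries, colour scale from -2 to 2 with the values written in) for the 9 genes above the black line and for the median of marker lists below it. Control 3 is above the mean for Notch1, Notch2, Dll4, Atoh1, Spdef and Gfi1. It is also above it for goblet, Paneth, stem cell, endothelial, fibroblast, B cell and ileum markers. It is below the mean for Dll1, Jag1 and Hes1 and for proximal, absorptive and enteroendocrine markers.

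Secretory cell markers varied widely within the control group. Goblet markers, products of cells that need Atoh1 and Spdef, gave 2 of 11 tested genes higher and 9 lower, with a median of -0.33 that was 0.07 without control 3 and -0.53 without control 2. Muc2, the secreted gel-forming mucin, measured 1163, 1769 and 1675 CPM in model libraries, against 2284, 1236 and 6727 CPM in control libraries. For Fcgbp, a mucus protein gene, the log2 fold change came to -0.07 (SE 0.34). The 12 goblet genes summed to 11719 to 12794 CPM in model libraries, against 13789, 9389 and 19534 CPM in control libraries, so that control 3 was highest and control 2 lowest, as for Atoh1 and Spdef. Paneth markers varied most, with sums over the 9 genes in the table of 89.5, 828 and 841 CPM in model libraries, against 2122.5, 22.9 and 8916 CPM in control libraries, and with Pla2g2a listed at 0. All 8 tested Paneth genes had lower means in model tissue, with a median of -2.71 that was -0.79 without control 3. Lyz1 (lysozyme) measured 43.7, 464 and 503 CPM in model libraries, against 1253, 10.8 and 3744 CPM in control libraries, and Defa24, a defensin whose reads may be shared with close paralogs, was at -2.15 (SE 1.5) on the log2 scale.

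Enteroendocrine hormone and granule genes gave 8 of 12 higher and 4 lower, with a median of 0.22 that was -0.02 without model 1 and 0.48 without control 1. It was -0.0053 with scaling by library size alone. Chgb, a granule protein gene, had a log2 fold change of 0.09 with an SE of 0.42, and Gip, a hormone of proximal intestine, 0.80 with an SE of 1.1. Both genes with an unadjusted edgeR p under 0.05, neither of which passed the test, were high in control 3: Gcg measured 2.70, 2.45 and 2.91 CPM in model libraries, against 7.95, 2.30 and 29.2 CPM in control libraries, and Nts, a hormone of distal intestine, 0.346, 0.340 and 0.769 CPM, against 1.38, 0.107 and 29.2 CPM. Tuft cell markers gave 5 of 9 tested genes higher and 4 lower (median 0.20, but -0.05 without model 1, 0.00109 without control 3 and 0.51 without control 2), with a log2 fold change of 0.20 for Ptgs1 (SE 0.20). Absorptive markers, the alternative fate, gave 8 of 9 tested genes higher, with a median of 0.76 that was 0.29 without control 3 and -0.06 without control 3 and model 1. The log2 fold change was 1.04 for Apoa1 (SE 0.55) and 0.81 for Alpi (SE 0.88). The glucose transporter gene Slc5a1 measured 2493, 2004 and 3380 CPM in model libraries, against 1383, 1832 and 831.8 CPM in control libraries (unadjusted p = 0.0400 in edgeR). Its groups were apart with model above, as for 4.73% of all tested genes, and control 3 was the lowest library.

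Stem cell markers, where Notch is active, gave 3 of 10 higher and 7 lower, with a median of -0.36. Olfm4, a Notch-dependent gene of mouse crypt base cells, measured 761, 756 and 574 CPM in model libraries, against 809, 657 and 468 CPM in control libraries. Lgr5, the stem cell receptor, measured 6.51, 6.67 and 5.87 CPM in model libraries, against 14.7, 5.45 and 21.5 CPM in control libraries (unadjusted p = 0.0424 in edgeR), and Slc12a2 had a log2 fold change of -0.29 (SE 0.24). Proliferation genes gave 4 of 12 higher and 8 lower, with a median of -0.10 that was -0.27 without model 2 and 0.05 without model 3. The log2 fold change was -0.32 for Mki67 (SE 0.30) and -0.48 for Top2a (SE 0.29), and Rrm2, a subunit of ribonucleotide reductase, had one of 0.55 (SE 0.20, unadjusted p = 0.0264). No gene of either list was called.

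Other cells that carry Notch genes also differed between libraries, with 0 called genes in each list. Endothelial markers gave 5 of 12 higher and 7 lower, with log2 fold changes of -0.10 for Pecam1 (SE 0.37) and 0.15 for Vwf (SE 0.52). Smooth muscle and pericyte markers gave 1 of 9 higher, with a median of -0.67. Myh11 measured 294, 379 and 465 CPM in model libraries, against 536, 748 and 842 CPM in control libraries (unadjusted p = 0.0156 in edgeR), and Acta2 had a log2 fold change of -0.75 (SE 0.37). All 8 fibroblast markers were lower (median -0.76, but -1.20 without model 2, -0.43 without control 3 and -0.20 without model 1 and control 3), with Col3a1 at -0.78 (SE 0.55) and Col1a1 at -0.74 (SE 0.61). T cell markers gave 7 of 8 tested genes higher (median 0.39), with Cd8a at 0.75 (SE 0.37) and Lck at 0.41 (SE 0.17, unadjusted p = 0.0435). All 9 tested B cell and follicle markers were lower, with a median of -0.84 that was 1.68 without control 3 and -5.16 without model 3, where the 10 genes summed to 13.3, 20.3 and 210.0 CPM in model libraries, against 47.4, 15.3 and 344 CPM in control libraries, with Ms4a1 listed at 0. The log2 fold change was -1.1 for Ighd (SE 2.18) and -0.59 for Cd22 (SE 1.13). Macrophage markers gave 4 of 8 higher, the log2 fold change being -0.06 for Lyz2 (SE 0.36) and -0.04 for Csf1r (SE 0.36).

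Segment and pancreas markers were marked by single libraries, and 0 genes of these lists or of the colon list were called. All 7 proximal markers were higher (median 0.65, but 0.09 without control 3 and 1.47 without control 2), among them Lct at a log2 fold change of 0.10 and with an SE of 1.66, and Slc40a1 at 0.21 with an SE of 0.70. All 6 tested ileum markers were lower, with a median of -0.60 that was 0.26 without control 3 and -1.05 without control 1. Slc51a and Nr1h4 of this list were at -0.50 (SE 0.56) and -0.70 (SE 0.51), and the bile acid carrier gene Slc10a2 and Osr2 measured 648 and 111 CPM in control 3 and at most 4.60 and 0.588 CPM in the other libraries. Colon markers gave 2 of 4 tested genes higher (median -0.39, but 0.09 without control 3 and -0.66 without model 1), with Slc26a3 at 0.53 (SE 0.52) and Car4 at -1.31 (SE 0.71). The 3 tested pancreas genes, Ctrb1, Pnlip and Cpb1, measured 1893, 1018 and 707 CPM in model 3 and at most 4.12, 2.42 and 1.39 CPM in the other libraries.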

How the data were processed

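Poly-A selected RNA was sequenced in 6 libraries. Reads went through FastQC, Trimmomatic, STAR and featureCounts on build GRCm39, per the submitters' processing notes. Tool versions, annotation and strand setting: not given in the sources used here. Whether reads of overlapping genes on opposite strands were counted apart is therefore not known here. In the GRCm38 annotation this concerns Notch1, Dll1, Dll4, Gfi1 and Neurog3, and Notch2 overlaps a gene on its own strand. The deposited file is 1 matrix with the authors' raw read counts by gene. Its 6 columns were matched to samples by library name. Genes were kept by filterByExpr, scaled by TMM and tested with edgeR 4.0.16 (quasi-likelihood F test, robust dispersion, group as the only term, Benjamini-Hochberg over 15904 genes, called below 0.05, R 4.3.3). SEs are the absolute log2 fold change over the square root of F. Exon length comes from GENCODE M21 (GRCm38), matched by symbol for 96.6% of tested genes. For ratios 0.5 was added to each count, as for the centred log2 CPM. Because the table gives no coordinates, those printed are RefSeq's on GRCm38.p6.

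The members and lists were chosen with earlier results of these data known. Named are the 10 members, in each list the 2 most abundant tested genes and those with an unadjusted p under 0.05, all other Notch receptors, ligands and targets, and the 5 genes nearest to Hes1 and Atoh1. Some genes that the rule names are not reported here. Insm1, Fabp6, Gata4, Vil1, B2m, Rpl35, Neurod1, Fbxw7, Cela2a, Pla2g2a, Ms4a1, Esam, Emcn, Kdr and Tek are named outside it, after their values were seen. Alternatives were RLE, upper quartile and no scaling, DESeq2 1.42.0, limma-voom 3.58.1, other filters, non-robust dispersion, a fold change limit, a replicate block and each library left out. Removing the trend with length (lowess) and leaving out model 1 with control 3 were added after the data were seen. No pair of libraries was treated as a duplicate, since chi-square over its degrees of freedom was at least 111.7 within groups. The fit was tested on simulated data without the segment, length and pancreas differences of these libraries, so that run cannot speak for the result here.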

Additional observations from a re-analysis of the deposited data

How the results depend on the processing

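With each alternative, 0 of the 9 tested members were called. The number of genes called was 0 in each but DESeq2, with 25. Of 153 values of members under alternatives, 137 kept their direction and 16 turned it, 6 of these 16 with 1 library left out. With limma-voom the log2 fold changes of Dll4 and Atoh1 were 0.0292 and 0.0320, and with the replicate block 0.0327 and 0.0540. Dll4 was at 0.0189 with the length trend removed. Without model 1 and control 3, Notch1 was at 0.35, Dll4 at 0.37, Atoh1 at 0.33, Spdef at 0.13 and Gfi1 at 0.24. With 1 library left out the ranges were -0.67 to 0.20 for Notch1 (highest without model 1), -0.40 to -0.11 for Jag1, -0.26 to 0.38 for Dll4, -0.31 to 0.49 for Atoh1, -0.51 to 0.28 for Spdef and -0.48 to 0.0383 for Gfi1, the last 4 highest without control 3. Atoh1 was also above 0 without model 2, at 0.0033. The difference in the log2 ratio of Atoh1 to Hes1 then ranged from -0.80 (without control 2) to 0.10 (without control 3). It was -0.39 with the replicate block or with 0 or 1 added to the counts. The cause of these turns was not tested. Scaling by library size alone moved the median of all genes to -0.21 and turned no member. Hes1 and Dll1 stayed above 0, and Notch2 and Jag1 below 0, in each alternative run. Hes1 had an unadjusted p = 0.0464 in edgeR without model 3, where 590 of all 16488 genes tested had one under 0.05. The replicate block changed no call (537 genes at an unadjusted p under 0.05, against 765 without it). The libraries share only a number: those with the same number correlated at -0.175, -0.252 and 0.295 in their deviations from the group means, and not every library correlated best with its own number. With 3 libraries a group, the 95% intervals of the members reach at least 0.57 on the log2 scale to either side of the estimate.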
